A study of Mus musculus with 4 samples.

Results

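The 10 genes described here encode endocytic receptors and other proteins of sinusoidal endothelium, together with the sort marker LYVE1: Lyve1, Stab1, Stab2, Mrc1, Cd36, Fcgr2b, Oit3, Gpr182, Dnase1l3 and Clec4g. They were found by symbol among the 23337 gene symbols counted in each library, and all 10 had counts in all 4 libraries. The genes were chosen on earlier results of these same libraries, so their differences are given as descriptions and none was tested. The study sorted lymphatic endothelial cells, negative for CD45 and positive for LYVE1 and VECAD, from the dorso-anterior region of mouse embryos at embryonic day 14.5. One library each came from wild type cells before culture, homozygous mutant cells before culture, wild type cells after culture and homozygous mutant cells after culture. The mutant carries a deletion that the labels do not place further; the series title refers to a GATA2-bound enhancer, and in the published study its gene is Prox1, the master regulator of lymphatic endothelial fate. A whole litter of embryos was pooled for each genotype. The cultured cells are the remainder of the same sorts, grown on the mouse stromal feeder line OP9 for 7 days, with FLT3L, IL3 and SCF at 100 ng/ml each and then sorted again for LYVE1 and VECAD, with no CD45 exclusion stated. With 1 library per group no value has a replicate, and every interval below is a 95% interval for counting error alone.

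Sinusoidal endothelium, best known from liver, spleen and lymph node, clears waste from blood and lymph by receptor-mediated endocytosis. Its stabilins, mannose receptor and Fc receptor bind hyaluronan, modified lipoproteins, collagen fragments and immune complexes and carry them through clathrin-coated vesicles to the lysosome. Lymphatic endothelium shares GPR182 and several of these receptors, LYVE1 above all, whereas liver sinusoids add C-type lectins, OIT3 and the nuclease DNASE1L3. Several of the genes are also active in macrophages, and Cd36 is active in fat cells.

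Before culture, gene counts totalled 3987150 in wild type and 7943587 in mutant cells, and after it 1694669 and 3931557. Olfactory and vomeronasal receptor genes, normally silent in endothelium, gave a background of 6.65 and 8.34 counts per kb before culture and 0.534 and 1.61 after it, in the same order. Levels are TMM-scaled CPM, which corrects counts for library size and composition, and a level per kb also divides by exon length. A fold is the ratio of 2 levels, and a gene is called higher or lower where the whole interval of its fold lies beyond 2-fold, provided that either library held 20 or more counts of it.

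The 10 genes fell into 3 kinds by their levels after culture. Stab2, Cd36, Oit3 and Gpr182 were 9.26 to 54.2 times higher after culture, Lyve1 and Clec4g 3.08 to 3.63 times higher, and Stab1, Mrc1, Fcgr2b and Dnase1l3 passed the call in neither genotype. The 6 genes called higher stand beside 8.17% of all measured genes called higher in wild type and 5.19% in mutant culture; no gene of the 10 was called lower, beside 5.77% and 3.62%. Between genotypes 0 of the 10 were called, beside 0.0158% of all measured genes called higher and 0.0475% lower before culture, and 0.244% and 0.0731% after it, so that count says nothing about the 10 genes. Stab2 and Mrc1 were the 2 genes whose genotype fold exceeded the one before culture, with an interval above 1 for the ratio of the folds, under all 5 scalings tried. Cultured and uncultured cells differ in time, feeder cells, cytokines and a repeat sort, which cannot be told apart.

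**Figure D1:**
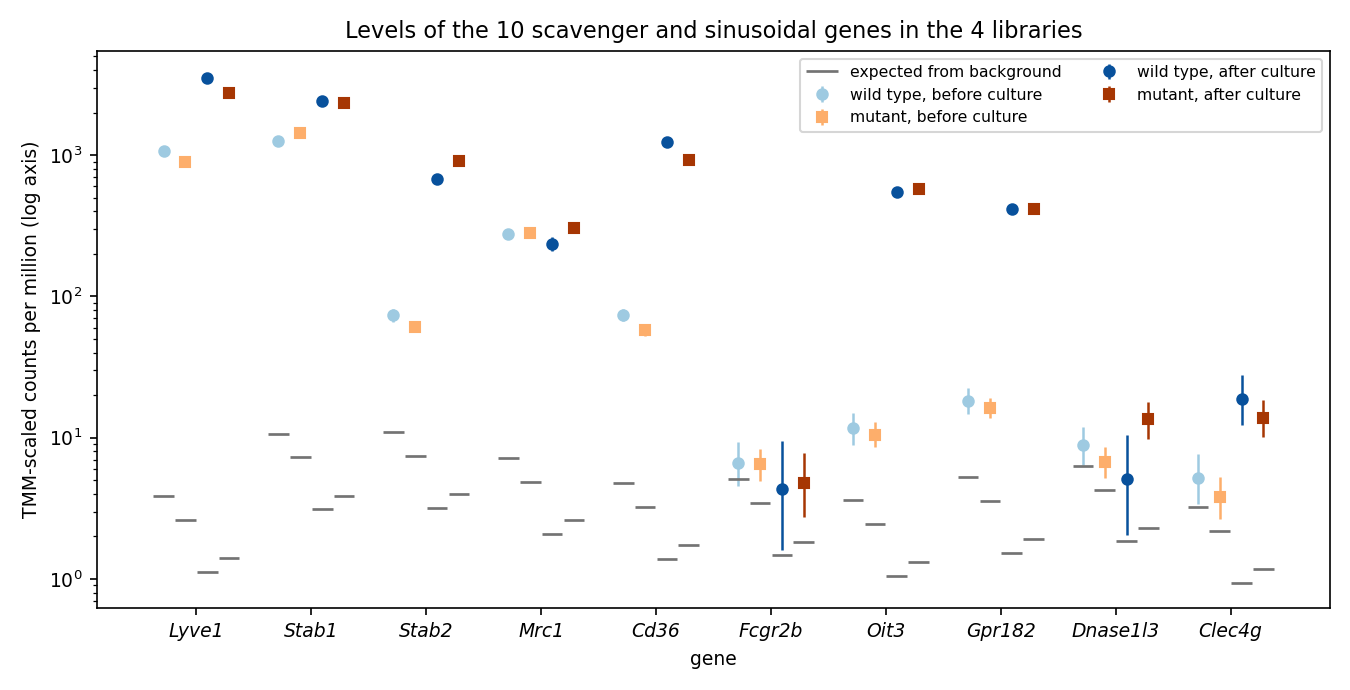
TMM-scaled CPM (log axis) of each of the 10 genes in the 4 libraries, with 95% counting intervals as vertical lines; grey dashes mark the level expected from the background rate and exon length. Stab2, Cd36, Oit3 and Gpr182 are far higher after culture than before it, while Fcgr2b, Dnase1l3 and Clec4g lie near the dashes before culture.

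Among the scavenger receptors, the paralogues Stab1 and Stab2 started at very different levels and moved unequally. Both encode large transmembrane receptors with fasciclin and EGF-like domains that internalise acetylated low-density lipoprotein, and STAB2 is also the main clearance receptor for circulating hyaluronan in liver. Stab1 (chr14:31139013-31168641 in mm10, minus strand) had 6306, 13257, 3320 and 7819 counts in wild type before, mutant before, wild type after and mutant after culture, or 1266, 1439, 2415 and 2338 CPM. It was the most counted of the 10 genes before culture. Stab2 (chr10:86841198-87008025, minus strand) had 367, 561, 937 and 3030 counts in the same order, or 73.7, 60.9, 682 and 906 CPM. Both cultured libraries were thus above both uncultured libraries for either gene on the TMM scale.

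The culture fold of Stab2 was 9.26 (8.19 to 10.5) in wild type cells and 14.9 (13.6 to 16.3) in mutant cells. That of Stab1 was 1.91 (1.83 to 1.99) and 1.62 (1.58 to 1.67), with both intervals below 2. The direction of Stab1 depends on the scale: measured against 6 endothelial genes, Cdh5, Pecam1, Tie1, Erg, Tek and Kdr, its folds were 0.845 (0.810 to 0.882) and 0.811 (0.789 to 0.834). With background counts subtracted, Stab2 stood at 7.96 and 14.6 and Stab1 at 1.41 in both genotypes. Per kb of exon, Stab1 exceeded Stab2 in every library, at 158 against 8.95 CPM per kb in wild type cells before culture and 302 against 82.8 after culture. In mutant cells the same levels were 180 against 7.40 before culture and 292 against 110 after it, so the ratio of Stab1 to Stab2 was smaller in the cultured cells of both genotypes, while the difference in level was larger.

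The genotype fold of Stab2, mutant over wild type, was 0.827 (0.724 to 0.946) before culture and 1.33 (1.23 to 1.43) after it. It therefore lay below 1 before culture and above 1 after it, with intervals that do not overlap. The later of these folds was 1.61 times the earlier one (1.38 to 1.87), and 1.56 to 1.83 times under the other 4 scalings. For Stab1 the folds were 1.14 (1.10 to 1.17) and 0.968 (0.929 to 1.01), a ratio of 0.851 (0.810 to 0.895) that became 0.996 (0.946 to 1.05) with background subtracted. Of 9106 genes that held 20 or more counts in each of the 4 libraries, 4.58% had a ratio interval above 1, as Stab2 did, and 28.2% had one below 1, as Stab1 did, with a median log2 ratio of -0.20.

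The stretch before the start site of both paralogues is shown because Stab2 was called higher after culture and Stab1 was not. Sequences are from RefSeq on GRCm38.p6, the assembly of mm10, 5′ to 3′ on the gene's own strand, limited to bases outside annotated exons. Capitals mark AGGAAG, the core bound by ETS factors, or its complement CTTCCT, and TGCTGA, a half-site of the MAF recognition element, or its complement.

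Stab1, chr14:31168642-31168891, minus strand: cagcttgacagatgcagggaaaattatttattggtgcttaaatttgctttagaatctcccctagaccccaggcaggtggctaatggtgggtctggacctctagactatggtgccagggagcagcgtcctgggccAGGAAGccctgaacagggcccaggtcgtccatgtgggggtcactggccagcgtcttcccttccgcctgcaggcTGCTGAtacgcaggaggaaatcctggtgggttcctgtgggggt

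Stab2, chr10:87008026-87008192, minus strand: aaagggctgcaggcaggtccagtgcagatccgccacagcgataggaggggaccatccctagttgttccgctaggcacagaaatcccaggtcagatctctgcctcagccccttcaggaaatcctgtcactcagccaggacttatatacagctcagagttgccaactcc

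Stab1 held 1 AGGAAG, 116 to 111 bases before its start site, and 1 TGCTGA, 43 to 38 bases before it. The one match of Stab2 to AGGAAG lay 40 to 35 bases before the RefSeq start, inside an exon of the GENCODE annotation, and is outside the stretch printed. No TGCTGA lay in the window of Stab2.

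Cd36, which encodes a class B scavenger receptor and fatty acid translocase of capillary endothelium, fat cells and macrophages, was among the genes that stood highest after culture. Cd36 (chr5:17781690-17888801, minus strand) had 368 and 531 counts in wild type and mutant cells before culture and 1709 and 3088 after it, or 73.9, 57.6, 1243 and 923 CPM. Its culture fold was 16.8 (15 to 18.9) in wild type and 16 (14.6 to 17.6) in mutant cells, and 13.2 and 14.6 with background subtracted. The mutant library was the lower of the pair at either time, with a genotype fold of 0.780 (0.682 to 0.894) before culture and 0.743 (0.700 to 0.788) after it. The ratio of those folds, 0.952 (0.823 to 1.10), held 1.

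Some genes of fat cells were also higher after culture. The 6 adipocyte markers Adipoq, Plin1, Cidec, Fabp4, Lpl and Pparg summed to 88.3 and 77.2 CPM before culture and 856 and 607 CPM after it, in wild type and mutant cells. Of those measured, 5 of 5 were called higher in wild type culture and 4 of 6 in mutant culture, or 3 of 6 with background subtracted, Fabp4 at 10.5 (8.84 to 12.4) and 11.1 (9.77 to 12.8). Capillary endothelium also expresses Fabp4, Lpl and Pparg, the 3 genes still called in mutant culture with background subtracted. Adipoq and Plin1, which define fat cells, reached 75 and 54 counts in cultured wild type cells and 43 and 50 in cultured mutant cells. Before culture Adipoq had 27 and 49 counts and Plin1 19 and 31, the latter below its expected background of 30.9 and 38.8. Adipoq was not called in mutant culture. Cidec had 19 and 28 counts before culture and 6 and 6 after it, and was called in neither culture. Adipoq was the only gene of the 17 lists called between genotypes, lower in the cultured mutant library at 0.236 (0.158 to 0.347). The part of these markers in the level of Cd36 was not tested. In bulk samples, fewer cells of a type and less RNA per cell cannot be told apart.

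The window before Cd36 is shown as that of a gene that was far higher after culture. Its RefSeq start, at base 17835896, lies inside the annotated span of the gene. The window is thus not upstream of the whole gene. Capitals mark the TGCTGA 11 to 6 bases before that start.

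Cd36, chr5:17835897-17836146, minus strand: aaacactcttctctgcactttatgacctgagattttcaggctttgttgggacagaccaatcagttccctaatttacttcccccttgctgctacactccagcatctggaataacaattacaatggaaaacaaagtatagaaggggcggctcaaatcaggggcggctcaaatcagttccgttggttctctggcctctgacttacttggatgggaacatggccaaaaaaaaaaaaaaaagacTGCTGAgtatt

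Mrc1 encodes the macrophage mannose receptor CD206, a multi-lectin endocytic receptor also present on lymphatic and sinusoidal endothelium. Mrc1 (chr2:14229392-14332057, plus strand) had 1369, 2589, 322 and 1025 counts in wild type before, mutant before, wild type after and mutant after culture, or 275, 281, 234 and 307 CPM. The cultured wild type library was thus the lowest and the cultured mutant library the highest, with the uncultured libraries between them. Its culture fold was 0.853 (0.753 to 0.963) in wild type cells and 1.09 (1.01 to 1.17) in mutant cells, on opposite sides of 1. In mutant cells the fold became 0.95 (0.883 to 1.02) with background subtracted and 0.544 (0.506 to 0.586) on the scale of the 6 endothelial genes, so its direction depends on the scale.

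The genotype fold of Mrc1 was 1.02 (0.958 to 1.09) before culture and 1.31 (1.15 to 1.49) after it, a ratio of 1.28 (1.11 to 1.47). Under the other 4 scalings the ratio was 1.24 to 1.49, above 1 in each. Of 18 macrophage markers, which include Csf1r, Cd163 and Ptprc, the summed level was 162 and 147 CPM before culture and 63.3 and 81.3 CPM after it, in wild type and mutant cells. These sums were 2.59 to 3.61 times the background expected for them, with C1qa at 0 in the cultured wild type library. Mrc1 had more counts than the 18 markers together in each library, 322 against 87 in cultured wild type cells. Counts of different genes do not measure shares of cells. The summed markers had a genotype fold of 0.907 before culture and 1.29 after it. After culture the 5 measured markers had a median log2 genotype fold of 0.73, and none was called. The part of macrophages in the genotype fold of Mrc1 was not tested.

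The window before Mrc1 is shown as that of a receptor gene that was not called in culture; it held AGGAAG 3 times, all read on the opposite strand.

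Mrc1, chr2:14229164-14229391, plus strand: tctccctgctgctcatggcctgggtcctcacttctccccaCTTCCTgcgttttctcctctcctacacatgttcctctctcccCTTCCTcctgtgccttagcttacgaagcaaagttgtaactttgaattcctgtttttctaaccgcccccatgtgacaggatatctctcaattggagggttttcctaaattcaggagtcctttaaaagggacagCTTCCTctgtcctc

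Lyve1, which encodes the hyaluronan receptor of lymphatic endothelium, was used in both sorts, so its level reports the gate as well as the cells. Lyve1 (chr7:110850607-110863239, minus strand) had 5341 and 8196 counts before culture and 4843 and 9168 after it, in wild type and mutant cells, or 1072, 890, 3523 and 2742 CPM. Per kb it was the highest of the 10 genes in all 4 libraries and ranked 18 and 31 among 22872 genes before culture and 7 and 8 after it. The culture fold was 3.29 (3.16 to 3.42) in wild type and 3.08 (2.99 to 3.18) in mutant cells. Measured against the 6 endothelial genes, it was 1.46 and 1.54 and no longer called, since those genes were themselves higher after culture, Cdh5 at 2.47 (2.36 to 2.58) and 2.14 (2.08 to 2.21). With background subtracted Cdh5 stood at 1.82 (1.75 to 1.91) and 1.85 (1.80 to 1.91) and was not called.

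The genotype fold of Lyve1 was 0.830 (0.802 to 0.859) before culture and 0.778 (0.751 to 0.806) after it. The mutant library was lower at either time. The ratio of the 2 folds was 0.938 (0.893 to 0.985), but 1.10 (1.05 to 1.15) with background subtracted, so its direction depends on the scaling. Prox1 itself had a genotype fold of 0.960 (0.914 to 1.01) before culture and 0.664 (0.572 to 0.773) after it, and was 0.408 times its uncultured level in wild type and 0.282 times in mutant cells. Of 6 lymphatic markers, namely Prox1, Pdpn, Flt4, Reln, Mmrn1 and Nrp2, 4 were called lower in each culture, Flt4 was called higher in wild type culture at 2.33 (2.23 to 2.43) but not with background subtracted, at 1.72, and Pdpn had 0 counts in the cultured wild type library.

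**Figure D2:**
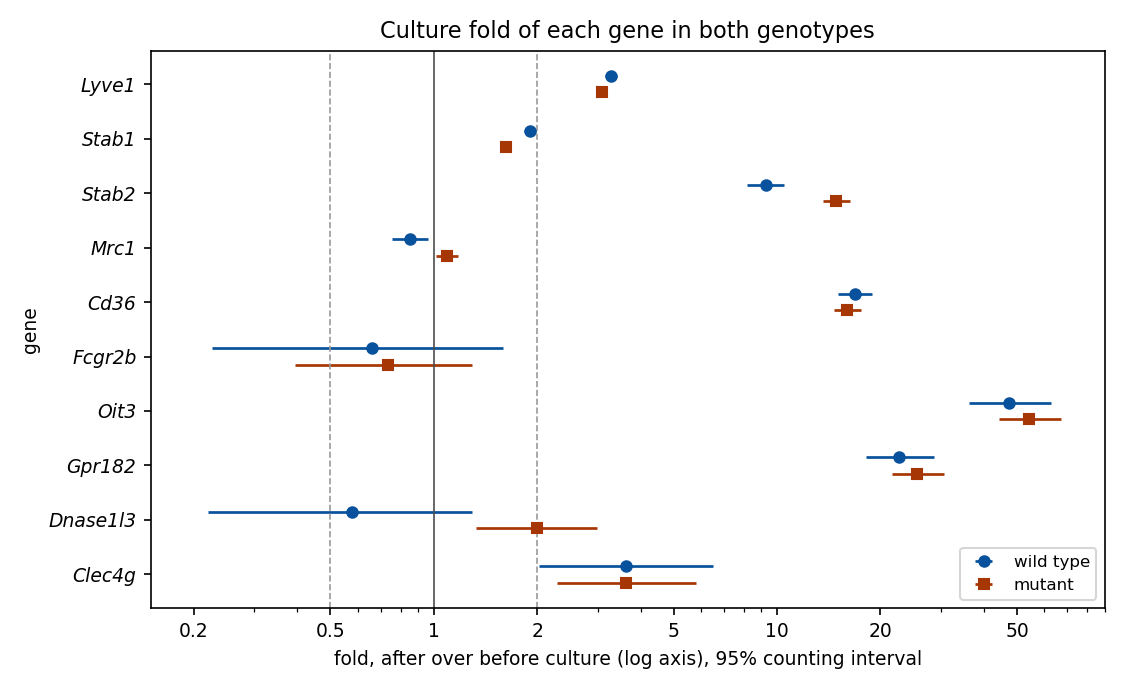
Culture fold, after over before (log axis), of each gene in wild type and mutant cells, with 95% counting intervals; dashed lines mark 2-fold. Oit3, Gpr182, Cd36 and Stab2 lie far to the right in both genotypes, and the intervals of Fcgr2b and of Dnase1l3 in wild type cells cross 1.

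By exon length, Oit3 and Gpr182 were the genes nearest to background before culture among those that were high after it. OIT3 is a secreted zona pellucida domain protein of liver sinusoidal endothelium, and GPR182 is an atypical receptor of lymphatic and sinusoidal endothelium that takes up chemokines. Oit3 (chr10:59422958-59441778, minus strand) had 58 and 97 counts before culture, 3.21 and 4.28 times the background for its length, and 756 and 1909 after it, in wild type and mutant cells. In CPM these were 11.6, 10.5, 550 and 571, so the genotypes differed little and the times of sampling did not overlap.

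The culture fold of Oit3, 47.3 (36.1 to 62.8) in wild type and 54.2 (44.2 to 67.2) in mutant cells, was the largest of the 10 genes. With background subtracted it was 50.4 (34.4 to 73.7) and 60.9 (46.8 to 79.3). Gpr182 (chr10:127747276-127751732, minus strand) had 91 and 149 counts before culture, 3.46 and 4.52 times background, and 570 and 1386 after it. Its levels were 18.3 and 16.2 CPM before culture and 415 and 414 CPM after it and differed between genotypes by less than the counting error. Its culture fold was 22.7 (18.2 to 28.7) in wild type and 25.6 (21.6 to 30.6) in mutant cells. The genotype folds after culture were 1.04 (0.954 to 1.13) for Oit3 and 0.999 (0.906 to 1.10) for Gpr182, the latter the nearest to 1 of the 10 genes.

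Clec4g encodes LSECtin, a C-type lectin of liver and lymph node sinusoidal endothelium. Clec4g (chr8:3707064-3720651, minus strand) had 26 and 35 counts before culture and 26 and 46 after it, in wild type and mutant cells, or 5.22, 3.80, 18.9 and 13.8 CPM. Before culture that was 1.61 and 1.73 times background and after culture 20.03 and 11.7 times. Its culture fold was 3.63 (2.02 to 6.50) in wild type and 3.62 (2.28 to 5.79) in mutant cells, at the edge of the call, and 6.70 and 6.79 with background subtracted. Scaled by total counts it was 2.35 (1.31 to 4.22) and 2.66 (1.67 to 4.25) and was not called. The genotype folds, 0.728 (0.426 to 1.26) and 0.727 (0.440 to 1.23), held 1, so no genotype difference could be detected with these counts.

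Fcgr2b, which encodes the inhibitory Fc receptor that liver sinusoids use to clear immune complexes, had 33 and 60 counts before culture and 6 and 16 after it, or 6.62, 6.51, 4.37 and 4.78 CPM. Its count was 1.3 and 1.89 times background for its exon length before culture. Of the olfactory and vomeronasal receptor genes, scaled by coding length, 26.3% and 14.6% stood at or above its count per kb of exon. The lengths are unlike, so these shares are not a like-for-like comparison. In the wild type library before culture the interval of the multiple, 0.896 to 1.83, held 1. No level of Fcgr2b apart from background could be read there by exon length. By coding length alone the multiples were 4.86 and 7.05 in wild type and mutant cells before culture, so the reading depends on the length used. Fcgr2b also shares sequence with its neighbouring Fc receptor genes, so its counts are uncertain. The culture folds, 0.659 (0.226 to 1.59) and 0.735 (0.395 to 1.29), held 1. On the scale of the 6 endothelial genes they were 0.292 (0.0999 to 0.706) and 0.367 (0.197 to 0.645), below 1, and with background subtracted the wild type fold turned to 1.38 (0.205 to 9.29).

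Dnase1l3, which encodes a secreted nuclease that digests chromatin in blood, had 44 and 62 counts before culture and 7 and 45 after it, or 8.83, 6.73, 5.09 and 13.5 CPM. The cultured mutant library was the highest of the 4 and stood at 5.87 times background, against 1.39 to 2.76 times in the others. By coding length alone these multiples were 30.0 and 7.11 to 14.1. The culture fold was 0.577 (0.219 to 1.29) in wild type and 2.0 (1.33 to 2.98) in mutant cells. With background subtracted these were 0.958 (0.201 to 4.58) and 3.96 (1.83 to 8.59), and on the scale of the 6 endothelial genes 0.255 (0.0971 to 0.572) and 0.998 (0.664 to 1.49). The genotype fold after culture was 2.64 (1.18 to 6.94), on 45 counts against 7. Its lower bound was below 2, so Dnase1l3 was not called. With background subtracted the ratio of the genotype folds was 4.14 (0.722 to 23.7), an interval that held 1.

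The 6 genes called higher were the same in both cultures, where 17154 genes were measured in wild type and 18807 in mutant cells. Since the genes were chosen on results that included this contrast, nothing is read from those counts. The median log2 culture fold was 1.73 in wild type and 1.70 in mutant cells, beside -0.04 and -0.10 over all measured genes. Summed, the 10 genes came to 2810 and 2772 CPM before culture and 9091 and 8233 CPM after it, a culture fold of 3.23 (3.16 to 3.31) in wild type and 2.97 (2.92 to 3.02) in mutant cells. On the scale of the 6 endothelial genes the sum was 1.43 and 1.48 times higher and not called.

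The makeup of the sum shifted as well. Per kb of exon, Lyve1 made up 59.4% and 53.4% of the 10 genes before culture and 52.7% and 47.6% after it, in wild type and mutant cells. Stab1 went from 25.4% and 31.2% to 13.1% and 14.7%, and Mrc1 from 8.19% and 9.08% to 1.89% and 2.87%. Cd36 went from 3.30% and 2.79% to 14.99% and 12.9%, and Oit3 from 0.69% and 0.67% to 8.76% and 10.6%. The order before culture, Lyve1, Stab1 and Mrc1 above the rest, thus became Lyve1 followed by Cd36, Stab1 and Oit3 in both genotypes, with Cd36 above Stab1 in wild type and below it in mutant cells.

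For the deletion, 10 of the 10 genes were measured among 18934 before culture and 9 among 12309 after it. Fcgr2b had fewer than 20 counts in both cultured libraries and was not measured there. The median log2 genotype fold was -0.22 before culture beside 0.04 over all genes, and -0.00 beside 0.00 after culture. The summed level of the 10 genes was 0.986 (0.966 to 1.01) times the wild type level before culture and 0.906 (0.887 to 0.925) times after it; without Lyve1 these were 1.08 (1.06 to 1.11) and 0.986 (0.960 to 1.01).

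**Figure D3:**
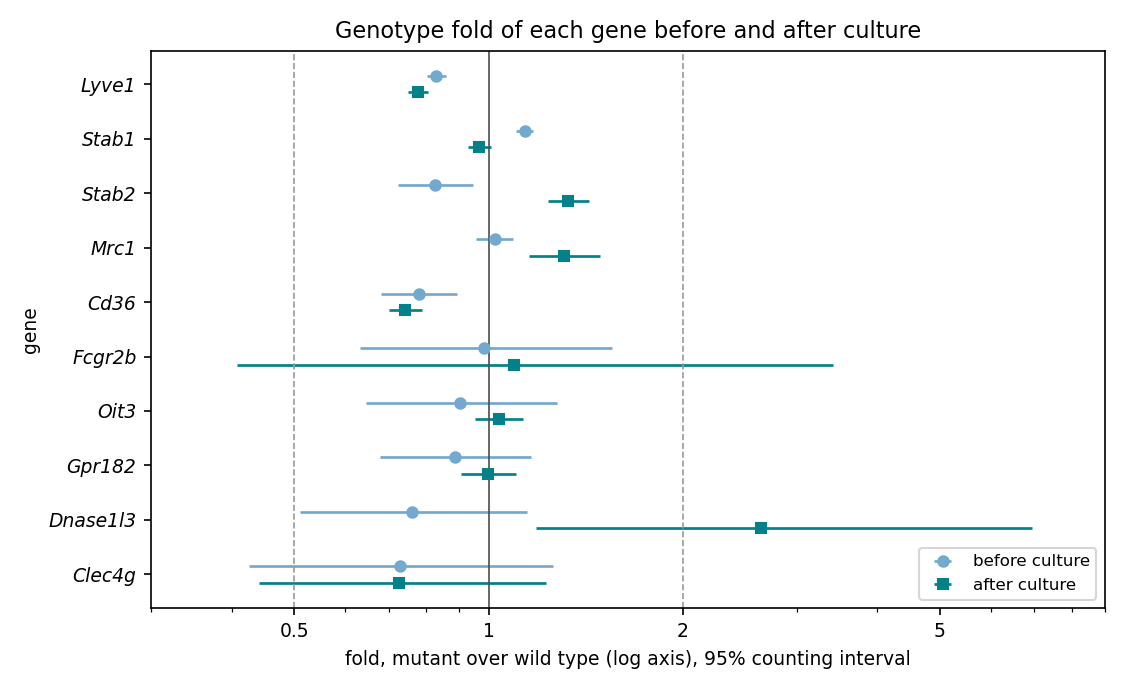
Genotype fold, mutant over wild type (log axis), of each gene before and after culture, with 95% counting intervals; dashed lines mark 2-fold. Lyve1 and Cd36 lie below 1 at either time, Stab2 moves from 0.827 to 1.33, and the interval of Dnase1l3 after culture is wide because the wild type library held 7 counts.

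Of 19 other genes of liver sinusoidal endothelium, 10 were called higher in wild type and 9 in mutant culture and none lower, with median log2 folds of 1.22 and 1.14. General endothelial markers had medians of 1.3 and 1.15, with 5 and 4 of 7 called higher and none lower. With background subtracted their medians were 0.87 and 0.98, with 2 called higher in each culture. The sinusoidal list then had medians of 1.34 and 1.37, with 9 called higher in each culture. A difference between these lists was not tested. Gata4, a transcription factor that liver sinusoidal endothelium requires, had 33 and 66 counts before culture and 826 and 1605 after it, in wild type and mutant cells, a culture fold of 90.7 (64.1 to 133) and 67.0 (52.4 to 87.1). Its counts before culture were 1.27 (0.874 to 1.78) and 2.03 (1.57 to 2.58) times background. In wild type cells that interval held 1, so no level apart from background could be read by exon length. By coding length alone the multiples were 3.74 and 5.97 in wild type and mutant cells. With background subtracted the folds were 313 (62.8 to 1555) and 114 (70.4 to 184), so their size is uncertain. F8, the gene of coagulation factor VIII, was 52.4 (45.9 to 59.97) times higher in mutant culture and was also called higher in wild type culture, with 173 counts before and 1661 after and a log2 fold of 5.10. Eng, a TGF-beta co-receptor, was 14.3 (13.4 to 15.3) and 11.1 (10.6 to 11.6) times higher, and Plvap, which builds the diaphragms of fenestrae, 8.16 (7.46 to 8.94) and 6.74 (6.32 to 7.18) times in wild type and mutant culture. Among 9 measured genes of continuous capillaries, 3 were called higher and 2 lower in each culture, Col4a1 at 3.01 (2.92 to 3.09) and 2.73 (2.68 to 2.79) and Lamb1 at 0.230 (0.198 to 0.265) and 0.169 (0.152 to 0.188). These chains of collagen IV and laminin belong to the basement membrane that liver sinusoids largely lack.

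Of 18 scavenger receptors beyond the 10, 7 were called higher and 1 lower in wild type culture, where 8.17% and 5.77% of all genes were. In mutant culture 6 were called higher and 2 lower, beside 5.19% and 3.62%, and the median log2 folds were 0.12 and 0.11. Scarb1, the receptor for high-density lipoprotein, was 8.62 (7.44 to 10.0) and 6.82 (6.18 to 7.55) times higher, and Colec12, a scavenger receptor with a collectin domain, 5.64 (4.95 to 6.43) and 5.36 (4.92 to 5.85) times. Scarf1, a receptor for modified lipoprotein, was called in both cultures, in the mutant at 2.49 (2.23 to 2.77). With background subtracted that value was 2.21 and was not called. The gene called lower in wild type culture was Cd163, the haemoglobin scavenger receptor of macrophages, at 0.176 (0.0560 to 0.424) on 5 counts.

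Among lectin receptors, 4 of 13 measured genes were called higher in wild type and 4 of 15 in mutant culture and none lower, although the median log2 folds were -0.52 and -0.49. Clec1b, the receptor for podoplanin, was 29.7 (19 to 48.5) and 30.3 (21.3 to 44.4) times higher, Clec14a, of endothelial cells, 8.32 (6.89 to 10.1) and 6.20 (5.43 to 7.08) times, and Cd93, a lectin-like receptor of endothelium, 3.11 (2.84 to 3.40) and 2.42 (2.28 to 2.58) times. Of 10 genes that make, bind or degrade hyaluronan, the ligand of LYVE1 and STAB2, 2 were called higher and none lower in each culture. Both degrade hyaluronan: Cemip2, counted under the older symbol Tmem2, was 9.66 (9.0 to 10.4) and 8.22 (7.84 to 8.62) times higher, and Hyal2 3.19 (2.52 to 4.03) and 2.42 (2.09 to 2.81) times. Hyal2 was not called in mutant culture with background subtracted, at 2.21 (1.90 to 2.58). The median log2 folds of that list were -0.60 and -0.39, opposite in sign to its called genes.

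Fcgrt, which encodes the neonatal Fc receptor that recycles immunoglobulin G, was the 1 gene called among 5 measured Fc receptor genes, at 4.15 (3.38 to 5.09) and 3.12 (2.70 to 3.60). The other Fc receptor genes were not called, and their list had median log2 folds of -1.22 and -0.87. Of the atypical chemokine receptors, with which GPR182 is grouped, 2 were called higher in each culture. Ackr2, counted as Ccbp2, was at 7.84 (5.25 to 11.9) and 5.69 (4.30 to 7.59), and Ackr1, counted as Darc, at 6.04 (2.81 to 13.6) and 4.20 (2.35 to 7.66) on 20 and 32 counts after culture. Ackr1 was not called in wild type culture with background subtracted, where the interval was 1.83 to 142. None of the other secreted and lysosomal nuclease genes was called, with Dnase2a at 1.90 (0.827 to 4.12) and 1.54 (0.941 to 2.47).

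The machinery that carries receptors inward was examined alongside. Of 22 genes of clathrin coats, adaptors, early endosomes and lysosomal membrane, 6 were called higher in each culture and none lower, with median log2 folds of 0.97 and 0.75. Lamp1, of the lysosomal membrane, was 4.61 (4.24 to 5.01) and 3.59 (3.38 to 3.80) times higher, Dab2, a clathrin adaptor, 2.95 (2.72 to 3.20) and 2.55 (2.41 to 2.71) times, and Ap2a2, a subunit of the AP2 adaptor, 2.86 (2.58 to 3.18) and 2.23 (2.09 to 2.39) times. Ap2a2 was not called with background subtracted, at 2.18 and 1.962. Except for Adipoq, no gene of these lists was called between genotypes before or after culture.

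**Figure D4:**
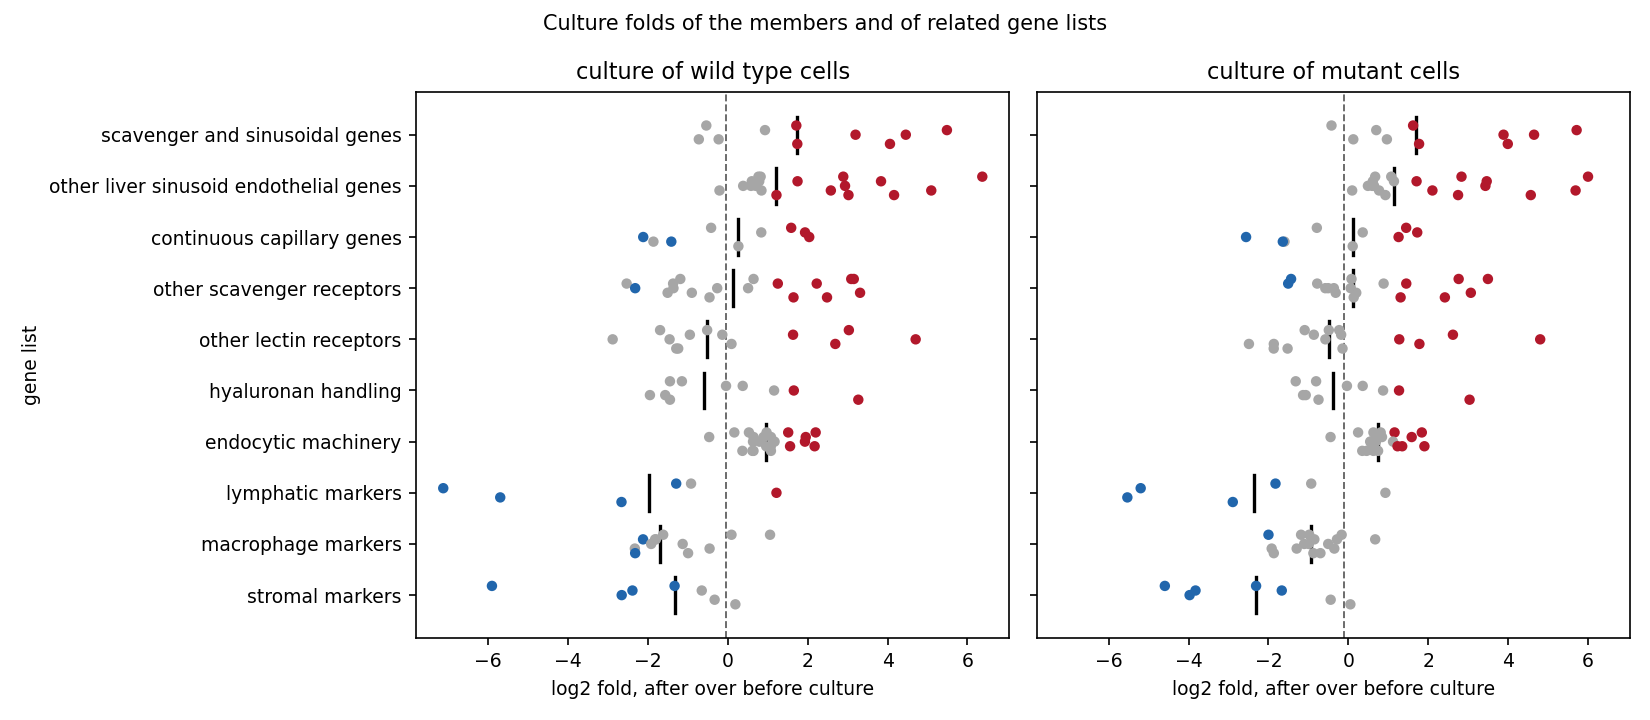
Log2 culture fold of each measured gene of 10 lists in wild type (left) and mutant (right) culture; red points were called higher, blue points lower and grey points neither, black bars are list medians, and the dashed line is the median over all measured genes. The 10 genes and the other liver sinusoid genes have medians of 1.73 and 1.22 in wild type culture, while the lymphatic marker median is -1.98.

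Markers of other cells that could share the gates were read beside these folds. Stromal markers summed to 3117 and 4970 CPM before culture and 1149 and 955 CPM after it, in wild type and mutant cells. Hepatocyte markers, at 19.6 and 22.1 CPM after culture, were 2.23 and 2.02 times background, and B cell markers were at 21.1 and 19.1 CPM. Megakaryocyte and platelet markers summed to 178 and 182 CPM after culture, but 242 of the 244 counts in cultured wild type cells were of Itga2b, with Pf4, Gp9, Gp1bb and Gp6 at 0. Endothelial markers went from 3603 and 3809 CPM to 8210 and 7653 CPM. The part of these cells in the folds above was not tested.

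The genes nearest to each gene in relative profile were found by the Euclidean distance of centred log2 levels. The search covered 13341 genes with at least 100 counts over the 4 libraries. Predicted, mitochondrial, ribosomal protein, small RNA and clone-named symbols were left out of it. The 4 libraries allow few distinct profiles, so the names describe likeness over 4 values only. Oit3 lay nearest to Csf2rb2, a chain of the IL3 receptor, at 0.18 log2 units, followed by Apoe at 0.19 and F8 at 0.31. Stab2 lay nearest to Fam124a at 0.16 and Masp1 at 0.33, Cd36 to Cd55 at 0.13, Gpr182 to Tspan7 at 0.22, and Lyve1 to Pros1 at 0.05. Stab1 and Mrc1 lay within 0.03 of their nearest genes, Map2k1 and Snrnp40, which are active in most cells. Among the 10 themselves, Clec4g was the eighth nearest to Lyve1 and Gpr182 the twelfth nearest to Oit3, whereas Stab1 and Stab2 lay 2.77 log2 units apart.

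Promoter windows of 250 bases before the RefSeq start were found for 6 of the 10 genes, Stab1, Stab2, Mrc1, Cd36, Fcgr2b and Clec4g. AGGAAG was searched on both strands and lay in 4 of the 6, beside 29.5% of 32851 promoters. TGCTGA lay in 2, beside 16.1%. The GATA core AGATAA, with a share of 9.99% over all promoters, the TFEB site TCACGTG, with 3.13%, and the interferon-response motif of 2 GAAA copies separated by 2 bases, with 2.98%, lay in none. AGGAAG was held by Stab1 and Mrc1, which were not called in culture, and by Stab2 and Clec4g, which were.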

How the data were processed

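Per the labels' protocols, RNA of 4 libraries was prepared with a stranded low-input kit and sequenced as 75 nt paired reads. The authors deposited raw counts for each gene symbol, not normalized, under a name that says duplicates were removed with sambamba. The effect of that step on abundant genes was not tested. According to the submitters' processing notes they used bcl2fastq, STAR, HTSeq 0.11.2 and build mm10; annotation and strand setting: not given in the sources used here. The 5 HTSeq summary classes were left out of totals. TMM factors came from edgeR 4.0.16 (R 4.3.3), and were 1.25, 1.16, 0.811 and 0.851 for wild type and mutant before culture and wild type and mutant after culture. Levels have exact Poisson intervals and folds Clopper-Pearson intervals of the share of counts; no p-value was computed, since each comparison sets 1 library against 1 and the genes were chosen on these contrasts. Amplified reads that carry no molecular identifier are not separate molecules, so intervals cover counting error only. Exon lengths are from GENCODE vM21. Background came from 1415 olfactory and vomeronasal receptor genes per kb of coding sequence, extended over the exon length of each gene. List medians use a prior count of 2. Named list genes were up to 3 called genes with the most counts in each comparison, or 2 where none was called; some genes that the rule selects, such as further nearest profiles, are left out for brevity, and 1 scavenger receptor gene is not reported here, although its list counts it. The members and lists were chosen with earlier results of these data known. The procedure was tested on simulated data. Alternatives were DESeq2 1.42.0 size factors, total counts, an endothelial scale, background subtraction, other count minimums and thresholds, and sums without Lyve1 or per kb.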

Additional observations from a re-analysis of the deposited data

How the results depend on the processing

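The libraries before and after culture are paired by sort within each genotype. With 1 pair per genotype, no paired analysis within a genotype was possible and no replicate could be left out. A joint fit with genotype and culture as additive terms would keep 1 residual degree of freedom; it was not made, since the genes were chosen on the culture contrast. The count of genes called between genotypes was 0 before culture under all 8 alternatives and 0 after culture under 7; with the point fold alone and no interval it was 1 after culture, Dnase1l3. The count called higher in culture was 4 to 6 in each genotype: 5 by total counts, 5 with a minimum of 100 counts, 4 on the endothelial scale, 4 where the interval had to lie beyond 4-fold and 6 otherwise. On the endothelial scale Mrc1 was called lower in wild type culture, at 0.378 (0.333 to 0.427). That scale moved the median log2 culture fold of all genes to -1.17 in wild type and -1.06 in mutant cells, and total counts to -0.64 and -0.53, against -0.04 and -0.10. Calls over all genes moved with it, from 1401 higher and 989 lower in wild type culture to 240 and 5705 on the endothelial scale and 516 and 2983 by total counts, and in mutant culture from 976 and 680 to 247 and 5089, and 493 and 1850.

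The summed culture fold fell short of the call on the endothelial scale alone, at 1.43 in wild type and 1.48 in mutant cells. The summed genotype fold before culture was 0.915 by total counts, 0.936 on the endothelial scale, 0.878 with background subtracted, 1.08 without Lyve1 and 0.923 per kb. After culture it was 0.871 with DESeq2 size factors, 0.95 by total counts, 0.969 on the endothelial scale, 0.939 with background subtracted, 0.986 without Lyve1 and 0.861 per kb. The number of the 10 genes whose ratio of genotype folds had an interval off 1 was 5, with 3 above 1 and 2 below. It was 5 with DESeq2 size factors, 4 by total counts, 4 on the endothelial scale and 3 with background subtracted, and in the last 3 settings all lay above 1. The cause of these shifts was not tested. The depth of the cultured wild type library, the shallowest, limits Fcgr2b, Dnase1l3 and Clec4g most.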
